A study of Mus musculus with 9 samples.

Results

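The genes described here are 10 genes that determine or mark Sertoli cells, the supporting cells of the testis: Sox9, Sox8, Fgf9, Dmrt1, Amh, Gdnf, Clu, Ptgds, Aard and Cst9. They were taken by name, as the probe sets annotated to such a gene alone, and they have 17 of the 45101 probe sets on the array and are 10 of the 18194 genes with a probe set of their own. A gene with several probe sets is shown by that of the highest mean over the 9 arrays. The others served as a check for the 10 members only, and those of the other genes named below were not examined. The study asked which genes change when fetal ovaries turn partly male in a male host. XX ovaries of 13 dpc, without mesonephros, were grafted under the kidney capsule of XY BALB/c nu/nu hosts, and grafts were recovered after 4, 7, 10, 15 or 20 days. The day 0 group was ungrafted ovaries of that age. The embryos of all groups came from wild-type mothers given busulfan, an alkylating drug that depletes germ cells, and the labels name the strain ICR, whereas the methods name C57BL/6 and ICR. Each array held a pool of approximately 10 grafts. Days 0, 10 and 20 had 2 arrays each, days 4, 7 and 15 had 1 each, and the numbers of litters and hosts behind a pool were not used here.

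In the XY gonad, SRY raises SOX9, which with the help of SOX8 and the secreted factor FGF9 turns the supporting cell precursors into Sertoli cells. These cells then secrete AMH, which removes the female ducts, and GDNF, which acts on germ cells, and they keep their identity after birth with the help of DMRT1. In the XX gonad, WNT4, RSPO1 and FOXL2 hold the same precursors on the path to granulosa cells, and granulosa cells of growing follicles themselves make Amh. None of these genes is therefore a mark of Sertoli cells alone in a tissue that holds follicles or germ cells.

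The values are log2 intensities normalized by the authors, and array medians lay between 6.49 and 6.63. A probe set was called at a limma adjusted p under 0.05 and a change over 2-fold, and values under 4.82, which is the 25th percentile over all arrays, count as close to background. A p-value here speaks only of the spread between pools. Day 20 replicate 1 stood apart: 10 kidney tubule genes had a median log2 difference from day 0 of 5.93 on it and between -0.15 and 0.29 on the other graft arrays, with a summed log2 level of 15.51 against 9.12 to 10.87. Foxl2, the granulosa transcription factor gene, lay between 11.44 and 12.98 on all arrays. Fewer cells of a type and less RNA per cell cannot be told apart in such samples.

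Of the 10 members, Sox8 and Gdnf rose and Dmrt1 fell on day 10, and on day 20 Cst9 fell too. On day 10 the 2 members that rose and the 1 that fell stand beside 2.87% of all probe sets called higher and 1.33% called lower. On day 20 there were 2 in each direction, beside 4.52% called higher and 3.10% called lower. The median log2 fold change of the members was 0.53 on day 10 and 0.21 on day 20, against -0.09 and -0.11 over all probe sets. Both comparisons use the same day 0 arrays. In 4 members (Sox8, Gdnf, Ptgds and Clu) all 7 graft arrays lay above both day 0 arrays, which 10.3% of all probe sets did, and in Dmrt1 all 7 lay below, as in 19.6%.

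**Figure D1:**
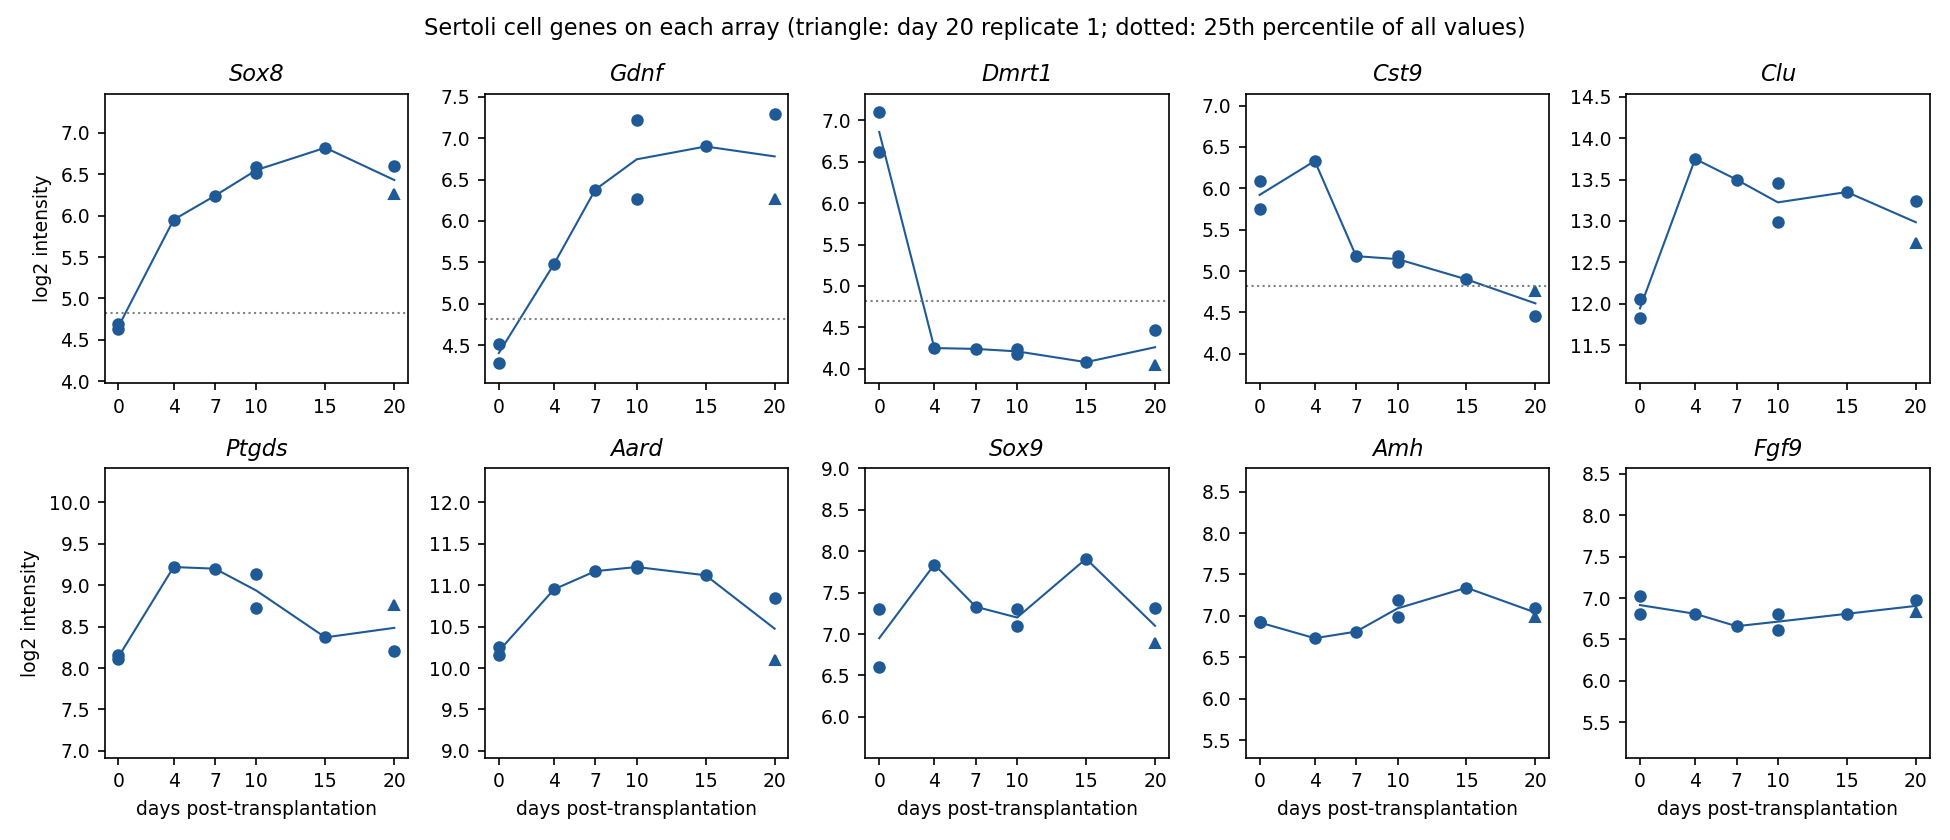
Log2 intensity (vertical axes, each 3.5 units tall with its own origin) of the 10 genes against days post-transplantation. Each point is 1 array, the triangle is day 20 replicate 1, with high kidney tubule genes, the line joins the means of the days, and the dotted line marks 4.82. Sox8 and Gdnf start below that line and rise, Dmrt1 drops below it by day 4 and stays there, and Sox9, Amh and Fgf9 show no call on any day.

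RefSeq promoter sequences (250 bases before to 50 after a start, build GRCm38.p6) were at hand for 5 of the 10 members, and those of the 2 that rose are shown, read in the direction of transcription. They were searched on both strands for AACAAT, the core bound by SOX proteins, AAGGTCA, bound by SF1, TGTTCT, the core of androgen receptor sites, and AGATAA, bound by GATA factors. Capitals mark a match. Sox8 is at chr17:25570637-25570936 on the minus strand, and the Gdnf starts are at chr15:7809798-7810097 and chr15:7813477-7813776 on the plus strand.
Sox8: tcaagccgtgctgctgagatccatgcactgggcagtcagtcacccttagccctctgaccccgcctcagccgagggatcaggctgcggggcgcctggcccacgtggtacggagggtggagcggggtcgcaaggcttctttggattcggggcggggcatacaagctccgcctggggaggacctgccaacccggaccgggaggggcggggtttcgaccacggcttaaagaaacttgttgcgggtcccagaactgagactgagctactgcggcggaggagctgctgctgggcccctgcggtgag
Gdnf, upstream start: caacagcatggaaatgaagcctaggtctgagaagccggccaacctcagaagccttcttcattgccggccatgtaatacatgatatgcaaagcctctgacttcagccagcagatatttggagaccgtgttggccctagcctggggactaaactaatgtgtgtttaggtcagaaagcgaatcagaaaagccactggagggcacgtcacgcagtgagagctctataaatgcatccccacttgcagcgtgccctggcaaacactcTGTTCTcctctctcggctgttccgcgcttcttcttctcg
Gdnf, downstream start: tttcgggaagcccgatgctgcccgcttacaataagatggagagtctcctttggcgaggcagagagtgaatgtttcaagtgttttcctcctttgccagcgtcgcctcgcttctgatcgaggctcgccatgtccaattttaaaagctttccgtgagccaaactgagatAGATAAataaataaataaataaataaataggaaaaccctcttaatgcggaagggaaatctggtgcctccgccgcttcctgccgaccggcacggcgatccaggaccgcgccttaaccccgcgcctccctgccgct
The upstream Gdnf start holds TGTTCT at bases 11 to 16 after the start, as 19.0% of the 32851 promoters of this length do on either strand. The downstream start holds AGATAA at positions -84 to -79, as 11.2% do. None of these letters stood in the Sox8 window, where AACAAT would be found in 10.7% and AAGGTCA in 4.72% of promoters. A match is a description of letters only.

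Among the genes that start the Sertoli cell path, Sox8 rose early and stayed high, whereas Sox9 and Fgf9 passed the test on no day. The log2 intensity of Sox8, which encodes an SRY-related factor that acts beside SOX9, was 4.63 and 4.69 on day 0, 5.95 on day 4, 6.24 on day 7, 6.59 and 6.51 on day 10, 6.82 on day 15, and 6.26 and 6.60 on day 20. Every graft array lay above both day 0 arrays by more than the gap between any duplicates. On day 10 Sox8 was 3.71-fold higher than on day 0 (log2 fold change 1.89 ± 0.18, SE, n = 2 arrays per day, limma adjusted p = 0.00741). On day 20 it was 3.41-fold higher (1.77 ± 0.18, adjusted p = 0.00599), and 3.83-fold without replicate 1, where kidney genes were high (adjusted p = 0.0112). Since both day 0 values lie close to background, the size of the rise is uncertain, and with low values raised to 4.82 it was 3.33-fold on day 10 and 3.06-fold on day 20. With the days ranked by their mean, only the gap between days 4 and 0, of 1.29, exceeded 2 standard errors. Days 7 and 15, of 1 array each, passed the test at 1.58 and 2.16 on the log2 scale (adjusted p = 0.0334 and 0.0127), and day 4 did not (adjusted p = 0.0763). The day 10 call was lost without any day 0 or day 10 array (adjusted p up to 0.0951), and the day 20 call without day 0 replicate 1 (adjusted p = 0.0525). The called days 7 and 15 likewise lost the call without any day 0 or day 10 array, with adjusted p up to 0.154 and 0.0808.

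Sox9, the gene whose product commits the precursors to the Sertoli cell fate, was at 7.30 and 6.60 on day 0, 7.84 on day 4, 7.33 on day 7, 7.30 and 7.10 on day 10, 7.91 on day 15, and 6.89 and 7.31 on day 20. The lone arrays of days 4 and 15 were the highest, and the day 0 arrays differed from each other by more than the day means of days 0, 10 and 20 did. The log2 fold change was 0.25 ± 0.29 on day 10 (adjusted p = 0.673) and 0.15 ± 0.29 on day 20 (adjusted p = 0.768), with a 95% interval on day 20 from -0.56 to 0.87. On days 4 and 15 it was 0.89 and 0.96 (adjusted p = 0.492 and 0.246). The probe sets of Sox9 disagreed in direction on day 10: the second had a log2 fold change of -0.29 and the third, with 3 of 9 values under 4.82, had 0.25. All 3 were higher than day 0 on day 4 (0.89, 0.55 and 0.49) and on day 15 (0.96, 0.54 and 0.28), and none passed (lowest adjusted p = 0.42 and 0.241). A doubling on day 20 therefore lies outside the interval of the main probe set, but a smaller change could not be told from the spread. That interval includes day 20 replicate 1, where kidney genes were high. With 1 array left out, the day 20 value ranged from -0.20 to 0.51, and whether a doubling lies outside the intervals of those fits was not examined.

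Fgf9, which encodes a growth factor that keeps Sox9 on in the XY gonad, stayed between 6.62 and 7.02 on all 9 arrays, with the graft values inside or below the day 0 values of 7.02 and 6.81. Its log2 fold change was -0.20 ± 0.17 on day 10 (adjusted p = 0.563) and -0.01 ± 0.17 on day 20 (adjusted p = 0.978), with 95% intervals from -0.62 to 0.22 and from -0.43 to 0.41. The second probe set gave -0.22 and 0.25. The Sry probe set lay between 6.22 and 6.52 in ovaries and grafts alike (log2 fold changes -0.09 and -0.03, limma adjusted p = 0.769 and 0.906). XX ovaries carry no Sry, so its day 0 values of 6.43 and 6.52 are not Sry RNA. Whether this probe set reads Sry at all is therefore not known from these arrays, and no graft value exceeded 6.52. A second probe set of Sry was not examined. The median of 3 other Y-linked genes was 0.90 to 2.94 above day 0 in the grafts of XY hosts.

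Dmrt1 showed the largest fall of the 10 members. The log2 intensity of this gene, a DM-domain factor of Sertoli cells and of fetal germ cells, was 6.62 and 7.10 on day 0, 4.25 on day 4, 4.24 on day 7, 4.24 and 4.18 on day 10, 4.08 on day 15, and 4.05 and 4.47 on day 20. All graft values lay under 4.82, below both day 0 arrays and close to one another. Against day 0 it changed by -2.65 ± 0.24 on day 10 (adjusted p = 0.00695) and by -2.60 ± 0.24 on day 20 (adjusted p = 0.00481). Without day 20 replicate 1 the day 20 value was -2.39 (adjusted p = 0.0168). With low values raised to 4.82 it was -2.04 on both days, which is 4.12-fold lower, and it is then a lower limit of the fall. Days 4 and 7, where 0.155% and 0.386% of all probe sets were called lower, and day 15 passed too (adjusted p = 0.0298, 0.0209 and 0.014). The day 20 call held with each of 6 arrays left out (adjusted p up to 0.0355), whereas the day 10 call was lost without either day 10 array (up to 0.0898). The calls of days 4, 7 and 15 were each lost in 4 of 6 such fits, with adjusted p up to 0.137, 0.0956 and 0.0695.

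**Figure D2:**
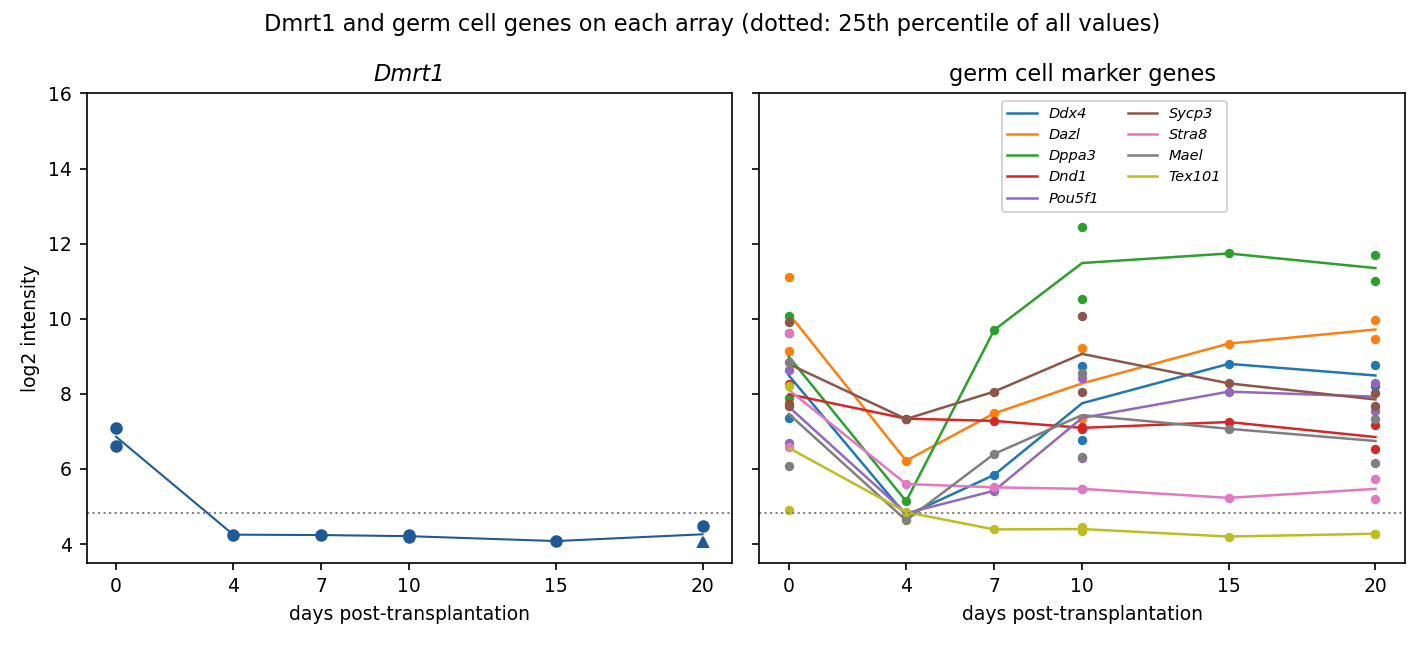
Log2 intensity of Dmrt1 (left) and of 9 germ cell genes (right) against days post-transplantation, with 1 point per array and lines through the day means. Dmrt1 stays under 4.82, the dotted line, from day 4 on. Of the germ cell genes, Stra8 stays at 5.21 to 5.73 in the grafts, while Dppa3 falls to 5.14 on day 4 and reaches 12.44 on a day 10 array.

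Germ cell genes moved on the same arrays. Their median log2 difference from the day 0 mean was -1.11 and 1.11 on the day 0 arrays, -2.83 on day 4, -2.17 on day 7, -1.36 and 0.25 on day 10, -0.51 on day 15, and -1.12 and -0.18 on day 20, and their summed level was 10.72 and 12.83 on day 0 and 9.21 to 13.06 in the grafts. None of the 9 germ cell genes was called on day 10 or day 20, with 3 at an unadjusted limma p under 0.05 on each day, 1 higher and 2 lower. Of all probe sets, 20.8% had such a p on day 10 and 26.8% on day 20. Stra8, a gene of meiotic entry, was at 6.58 and 9.63 on day 0 and at 5.21 to 5.73 in the grafts, and 19.6% of all probe sets likewise had every graft below both day 0 arrays. Dppa3, a gene of primordial germ cells and oocytes, was at 7.90 and 10.08 on day 0, 5.14 on day 4, and 10.53 and 12.44 on day 10, where Dmrt1 was still low. The part of germ cells in the fall of Dmrt1 was not tested. Of the other DM-domain genes, none of 6 was called on day 10 or day 20, with 1 and 3 at an unadjusted p under 0.05, all lower, beside the same 20.8% and 26.8%.

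Of the secreted Sertoli cell products, Gdnf was called higher and Amh, read from 1 probe set, was not called. The log2 intensity of Gdnf, which encodes a growth factor for spermatogonial stem cells and nerve cells, was 4.52 and 4.29 on day 0, 5.48 on day 4, 6.38 on day 7, 7.22 and 6.27 on day 10, 6.90 on day 15, and 6.27 and 7.29 on day 20. All grafts exceeded both ungrafted samples, and the duplicates of days 10 and 20 lay about 1 unit apart. Gdnf was 5.06-fold higher on day 10 (log2 fold change 2.34 ± 0.44, adjusted p = 0.0476) and 5.18-fold higher on day 20 (2.37 ± 0.44, adjusted p = 0.0311). Without day 20 replicate 1 the day 20 value was 7.36-fold (adjusted p = 0.0338), and without replicate 2 it was 3.65-fold (adjusted p = 0.0488). Both calls were lost without any day 0 or day 10 array, with adjusted p up to 0.232 on day 10 and 0.159 on day 20. The day 20 call was also lost with array weights and with only the arrays of the 2 days compared (adjusted p = 0.0709 and 0.0581). Both day 0 values are close to background, and with low values raised to 4.82 the rise was 3.81-fold on day 10 (adjusted p = 0.207) and 3.90-fold on day 20 (adjusted p = 0.157), and neither passed. With the days ranked by their mean, no gap between days next in rank exceeded 2 standard errors.

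The receptors of GDNF did not rise with it. Ret, which encodes the signalling receptor, was at 8.50 and 8.11 on day 0 and at 5.55 to 6.96 in the grafts. In 19.6% of all probe sets, too, all graft arrays lay below both day 0 arrays. Ret fell by 2.14 on the log2 scale on day 10 (limma adjusted p = 0.0265) and by 2.53 on day 20 (adjusted p = 0.0112). Gfra1, which encodes the GDNF-binding co-receptor, moved by -0.01 and 0.56 on the log2 scale (adjusted p = 0.996 and 0.445), and its highest value, 6.60, was on the day 20 array where kidney genes were high. Of 9 genes of this pathway, none rose and 2 fell on day 10 and 3 fell on day 20, beside 1.33% and 3.10% of all probe sets called lower. Gfra3, the artemin co-receptor gene, fell by 1.97 and 2.05 (adjusted p = 0.0195 and 0.0122), and the ligand gene Nrtn fell by 1.18 on day 20 (adjusted p = 0.0182). The pathway median was -0.18 on day 10 and -0.33 on day 20, against -0.09 and -0.11 over all probe sets. All of these calls were lost without either day 0 array, and those of day 10 and that of Nrtn without either day 10 array too (adjusted p up to 0.186).

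Amh, the gene of anti-Müllerian hormone, was at 6.92 and 6.92 on day 0, 6.73 on day 4, 6.81 on day 7, 6.99 and 7.19 on day 10, 7.34 on day 15, and 6.99 and 7.09 on day 20. The values of days 4 and 7 lay below and all later ones above day 0, within a range of 0.61. The log2 fold change had a 95% interval from -0.21 to 0.56 on day 10 and from -0.26 to 0.51 on day 20, so that a doubling lay outside it on both days. None of 8 genes for AMH receptors and their SMAD proteins was called by limma on day 10 or 20, with 2 (both higher) and 5 (3 higher, 2 lower) at an unadjusted p under 0.05, beside 20.8% and 26.8% of all probe sets. Amhr2, the receptor gene, moved by -0.32 and -0.87 on the log2 scale (adjusted p = 0.692 and 0.222), with 11.88 on day 20 replicate 1 and 13.05 on replicate 2.

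Ptgds, which encodes the prostaglandin D2 synthase that helps to keep SOX9 active in the fetal testis, was at 8.11 and 8.16 on day 0, 9.22 on day 4, 9.20 on day 7, 9.14 and 8.73 on day 10, 8.37 on day 15, and 8.76 and 8.21 on day 20. It was highest on the early grafts and came back towards the ungrafted level, although no graft value fell into the day 0 range. The log2 fold change was 1.08 on day 4, 1.06 on day 7, 0.80 ± 0.25 on day 10 and 0.35 ± 0.25 on day 20, and none passed (adjusted p = 0.28, 0.213, 0.15 and 0.423). The day 20 value was 0.07 with replicate 1 of that day left out. The second probe set gave 1.24 on day 10 (adjusted p = 0.118) and 0.57 on day 20 (adjusted p = 0.349). Of 4 other genes of prostaglandin D2 synthesis and sensing, Hpgds, the haematopoietic form of the synthase, rose by day 10 (log2 fold change 1.35, adjusted p = 0.0234, lost without any day 0 or day 10 array). Its values were 5.15 and 5.51 on day 0 and 5.97 to 6.80 in the grafts, and 10.3% of all probe sets likewise had every graft above both day 0 arrays. Macrophage genes, of which 5 of 6 rose on day 10 and 6 of 6 on day 20, beside 2.87% and 4.52% of all probe sets called higher, had summed levels of 10.30 and 10.89 on day 0 and of 12.99 to 14.81 in the grafts, and their part in Hpgds, Ptgds and Clu was not tested. Without either day 10 array the day 10 calls of Csf1r, C1qa, Cd68 and Cd14 were lost and that of Lyz2 held, and without day 0 replicate 1 the day 20 calls of Adgre1, Csf1r and C1qa were lost.

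Clu and Aard, both of which are high in Sertoli cells, were above day 0 without passing the test. Clu, the gene of the secreted chaperone clusterin, was at 12.06 and 11.83 on day 0, 13.75 on day 4, 13.50 on day 7, 13.46 and 12.99 on day 10, 13.35 on day 15, and 12.73 and 13.24 on day 20. Every graft lay above the ungrafted samples. It was higher by 1.28 ± 0.26 on the log2 scale on day 10 (2.42-fold, adjusted p = 0.0575) and by 1.04 ± 0.26 on day 20 (2.06-fold, adjusted p = 0.0645). It passed on day 10 without either day 20 array (adjusted p = 0.0388) and on both days with an intensity trend in the variance (adjusted p = 0.029 and 0.0366). With replicate 1 of day 20 left out the value was 1.30 (adjusted p = 0.0589). The 3 other probe sets of Clu gave 1.03 to 1.15 on day 10 and 0.73 to 0.86 on day 20.

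Aard, which encodes an alanine- and arginine-rich protein, was at 10.16 and 10.25 on day 0, 10.95 on day 4, 11.17 on day 7, 11.23 and 11.21 on day 10, 11.12 on day 15, and 10.10 and 10.85 on day 20. The value of day 20 replicate 1 alone fell back to the day 0 level. Against day 0 it differed by 1.02 ± 0.26 on the log2 scale on day 10 (adjusted p = 0.104) and by 0.27 ± 0.26 on day 20 (adjusted p = 0.565). Without day 20 replicate 1, Aard passed on day 10 (adjusted p = 0.0201) and had 0.64 on day 20 (adjusted p = 0.0756), and without replicate 2 it passed on day 10 likewise and had -0.11 on day 20. Of the 10 members, 8 were lower on day 20 replicate 1 than on replicate 2, as were 52.7% of all probe sets, and the part of kidney RNA in these gaps was not tested.

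Cst9, which encodes a cystatin of fetal Sertoli cells, moved down with time. Its values were 5.75 and 6.09 on day 0, 6.33 on day 4, 5.18 on day 7, 5.18 and 5.11 on day 10, 4.90 on day 15, and 4.76 and 4.46 on day 20. All grafts from day 7 on lay below both day 0 arrays, that of day 4 lay above them, and both values of day 20 were close to background. The log2 fold change was -0.77 ± 0.20 on day 10 (adjusted p = 0.0975) and -1.31 ± 0.20 on day 20 (adjusted p = 0.0178). Without day 20 replicate 1 it was -1.45 on day 20 (adjusted p = 0.0296). The day 20 call was lost without any day 0 or day 10 array (adjusted p up to 0.0989) and with low values raised to 4.82, where the change was -1.10 (adjusted p = 0.0548), as well as with only the arrays of the 2 days compared (adjusted p = 0.0657).

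**Figure D3:**
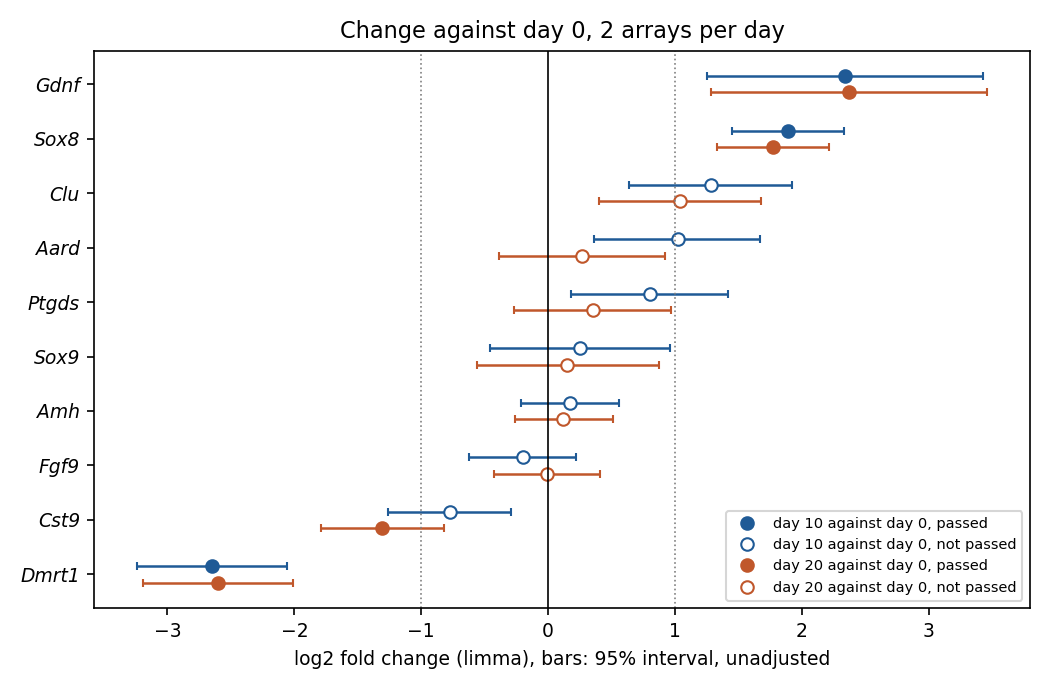
Log2 fold change of the 10 genes on day 10 (blue) and day 20 (orange) against day 0, with 2 arrays per day and bars of the unadjusted 95% interval. Filled points passed the test, and the dotted lines mark a change of 2-fold. Sox8 and Gdnf passed upwards and Dmrt1 downwards on both days, Cst9 on day 20 only, and the intervals of Sox9, Amh and Fgf9 include 0 on both days.

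On the days with 1 array, Sox8 rose and Dmrt1 fell on days 7 and 15, and on day 4 the fall of Dmrt1 was the only call. Of all probe sets, 0.774% were called higher and 0.155% lower on day 4, and 1.28% higher and 0.386% lower on day 7. On day 15, 2.80% were called in either direction. The median log2 fold change of the 10 members was 0.82 on day 4, 0.67 on day 7 and 0.66 on day 15, against -0.06, -0.08 and -0.09 over all probe sets. Days were also ranked by the mean of each gene, which is not their order in time. Gaps between days next in rank exceeded 2 standard errors for Sox8 (1.29 between days 4 and 0), Dmrt1 (2.60 between days 0 and 20), Cst9 (0.74 between days 0 and 7) and Clu (1.04 between days 20 and 0). In time, the uncalled steps from day 0 to day 4 of Clu (1.80 ± 0.32), Ptgds (1.08 ± 0.30), Sox9 (0.89 ± 0.35) and Aard (0.75 ± 0.32) also exceeded 2 standard errors. Later steps in time were not compared. Without day 20 replicate 1, the day 20 log2 fold changes of Sox9, Amh and Fgf9 were 0.36, 0.17 and 0.06, and none passed. Between days 10 and 20 no member was called by limma, with Aard and Cst9 at an unadjusted p under 0.05, both lower on day 20, as 1.85% of all probe sets were, and 0.00222% of all probe sets were called. Aard passed there without day 20 replicate 2 (adjusted p = 0.0411).

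Each member with a span over 1 unit was set beside 6629 genes by Pearson's r over the 9 arrays. All genes are read from the same 9 arrays, and the values are a description. Atp8b1 (r = 0.997), Abcc9 (0.993) and Sec24d (0.993) had the patterns most like that of Sox8. For Gdnf these were Rabgap1l (0.991), Akr1cl (0.985) and Bmpr2 (0.984), and for Dmrt1 they were Cdh10 (0.991), Dusp9 (0.990) and Serpina1f (0.989). Sox8 and Gdnf had r = 0.95 with each other, and Sox8 and Dmrt1 had r = -0.94. The closest gene to Clu was Pdpn (0.983), to Aard Dpf3 (0.982), to Cst9 Asic3 (0.970), and to Ptgds Tnfrsf11b (0.953). Sox9 had none above 0.883 (Eno2).

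Other genes listed for Sertoli cells, not all of them particular to these cells, went both ways. Of 22 measured, 1 rose and 1 fell on day 10, beside 2.87% of all probe sets called higher and 1.33% called lower. On day 20, 2 rose and 4 fell, beside 4.52% called higher and 3.10% called lower. Their median log2 fold change was -0.09 on both days, against -0.09 and -0.11 over all probe sets. Mmd2, a membrane receptor gene of fetal Sertoli cells, was at 6.45 and 6.38 on day 0, 7.17 on day 4, 7.37 on day 7, 8.44 and 8.19 on day 10, 8.93 on day 15, and 9.61 and 9.04 on day 20. All its graft values lay above both day 0 values, as in 10.3% of all probe sets. It was 3.73-fold higher on day 10 (adjusted p = 0.0153) and 7.54-fold higher on day 20 (adjusted p = 0.00359). Dhh, the Sertoli cell's hedgehog ligand gene, was at 6.83 and 6.64 on day 0 and at 8.14 and 8.68 on day 20, 3.18-fold higher (adjusted p = 0.0363). The Mmd2 call of day 20 held with each array left out, that of day 10 was lost without any day 0 or day 10 array, and that of Dhh was lost without any of the 6.

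The 4 that fell on day 20 encode transcription factors. Nr5a1, the gene of the steroidogenic factor SF1, was 2.83-fold lower on day 10 (adjusted p = 0.0487) and 4.08-fold lower on day 20 (adjusted p = 0.015), from 10.86 and 10.69 to 8.34 and 9.15, and the day 10 call was lost without any day 0 or day 10 array (adjusted p up to 0.32). Gata4, a partner of SF1 in the early gonad, fell by 2.18 on the log2 scale on day 20 (adjusted p = 0.0379). The paper uses GATA4 to mark every somatic cell type of the gonad, and Gata4 was at 10.61 and 10.11 in the ungrafted ovaries. Rhox5, an X-linked homeobox gene, fell by 3.35 (adjusted p = 0.0244), and Gata1 by 1.07 (adjusted p = 0.0479). The day 20 value of Gata4 was 7.53 on replicate 1 and 8.82 on replicate 2. Rhox5 was at 7.90 and 9.73 on day 0 and at 5.54 and 5.38 on day 20. With 1 array left out, its day 20 log2 fold change ranged from -4.27 to -2.43. Without either day 10 array the day 20 calls of all 4 were lost at an unchanged fold change, and those of Nr5a1, Gata4 and Gata1 were lost without either day 0 array as well, with adjusted p up to 0.18. The Rhox5 call was lost without either day 20 array and that of Gata1 without day 20 replicate 1. Defb19, a defensin gene of Sertoli cells, was at 7.58 and 8.28 on day 0 and at 9.09 to 10.51 in all grafts. All grafts lay above both day 0 arrays in 10.3% of all probe sets, too. Defb19 missed the threshold (adjusted p = 0.0524 on day 10 and 0.0817 on day 20). Gjb2 had 8.86 on day 20 replicate 1, where kidney genes were high, against 6.49 on replicate 2 and 5.21 to 5.82 elsewhere.

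**Figure D4:**
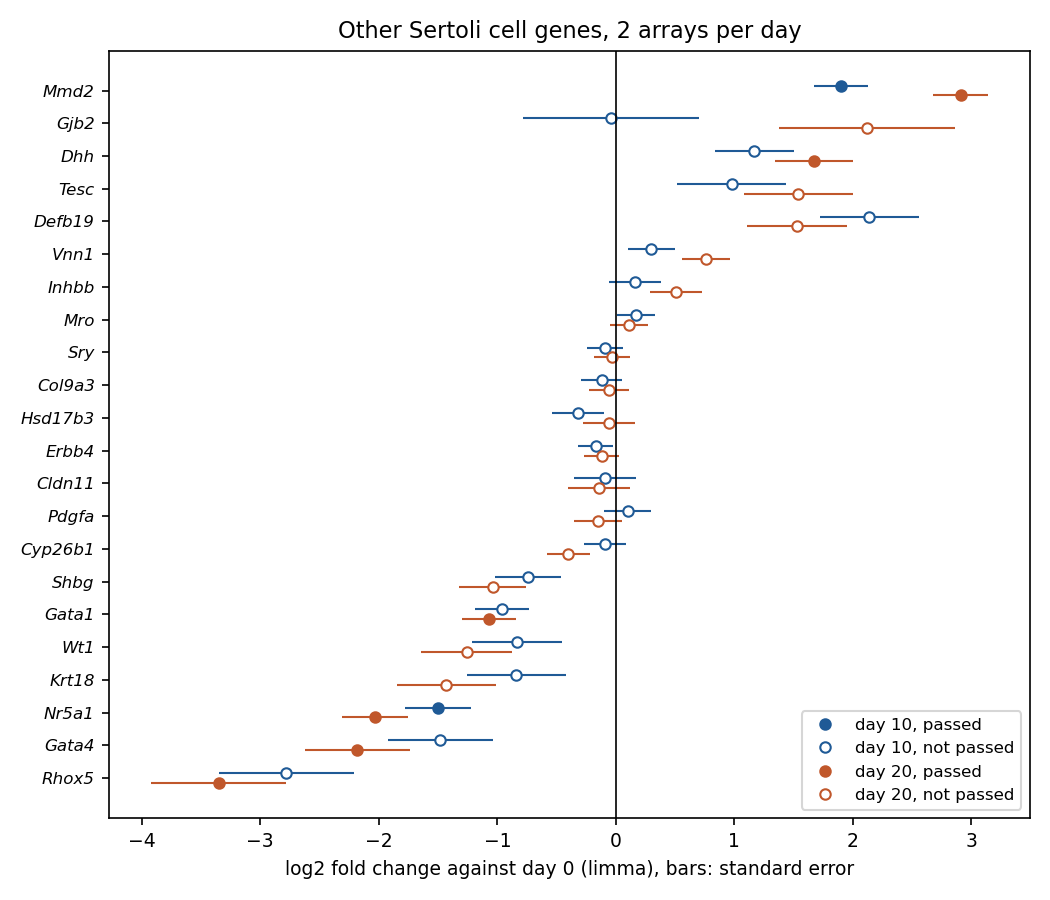
Log2 fold change against day 0 of 22 other genes listed for Sertoli cells on day 10 (blue) and day 20 (orange), with bars of 1 standard error and filled points for those that passed the test. Mmd2 lies highest and Rhox5 lowest on day 20.

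Some ovarian genes that oppose the Sertoli cell path fell on the same arrays. Of 6 (Foxl2, Wnt4, Rspo1, Fst, Bmp2 and Runx1), 2 fell on day 10 and 4 on day 20, beside 1.33% and 3.10% of all probe sets called lower. Their median log2 fold change was -1.29 and -1.88, against -0.09 and -0.11 over all probe sets. By array, their median difference from day 0 was -2.25 on day 20 replicate 1, where kidney genes were high, and -1.51 on replicate 2. Of the 6, 5 were lower on replicate 1 than on replicate 2, as were 52.7% of all probe sets. Fst, the follistatin gene, was 4.93-fold lower on day 20 (adjusted p = 0.00278), and this call held with each array left out, while those of Wnt4, Rspo1 and Bmp2 did not. Both day 10 calls, of Fst and Bmp2, were lost without any day 0 or day 10 array (adjusted p up to 0.0951 and 0.151). Foxl2 was not among them, at 11.44 and 11.58 on day 0 and 11.71 to 12.98 in the grafts (log2 fold change 1.29 and 0.83, adjusted p = 0.159 and 0.265). Its lowest graft value, 11.71, was that of day 20 replicate 1, against 12.98 on replicate 2. Neither was Runx1, at 9.01 and 7.15 on day 0 and 7.52 to 10.42 in the grafts (log2 fold change 1.63 and -0.09, limma adjusted p = 0.232 and 0.945). Fgfr2, which encodes a receptor that relays FGF9 in the XY gonad, fell by 1.40 on day 10 (adjusted p = 0.0319) and by 1.74 on day 20 (adjusted p = 0.0122), the only call among 6 genes of that pathway, lost without either day 0 array on both days and without either day 10 array on day 10. Of 7 granulosa genes of growing follicles, 4 rose on day 10 and 5 on day 20, beside the 2.87% and 4.52% of all probe sets called higher, with summed levels of 13.05 and 13.06 on day 0 and 14.20 to 15.04 in the grafts. Without either day 10 array the day 10 calls of Inha, Hsd17b1 and Nr5a2 were lost and that of Slc18a2 held, and on day 20 the call of Inhba was lost without any day 0 or day 10 array. The part of follicles in the levels of Sox8, Amh and Clu was not tested. Genes of cartilage, which also makes Sox9, had summed levels of 9.19 and 9.52 on day 0 and 9.06 to 9.59 in the grafts. Col11a1 was the highest of the 6 genes on every array, and Acan, the aggrecan gene, was 3.44-fold lower on day 20 (adjusted p = 0.0297), lost in 5 of 6 fits with an array left out. Among 5 other Sox genes, Sox13 fell by 1.21 on day 20 (adjusted p = 0.0139, lost without any day 0 or day 10 array).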

How the data were processed

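RNA of ovaries and grafts was hybridised to 9 Affymetrix whole-genome mouse arrays. The authors deposited log2 intensities after robust multiarray normalization (RMA, version not given in the sources used here). Either of 2 labelling kits was used, and which arrays had which is not stated. Probe sets were named by the platform annotation: 34958 have 1 symbol, 932 several and 9211 no entry. A mean per day was fitted to all 45101 probe sets with limma 3.58.1 in R 4.3.3 (3 residual and 2.69 prior degrees of freedom), with Benjamini-Hochberg adjustment over all of them. Lone arrays were assumed to vary like the duplicates. The test was tried on simulated data. Tables were made with pandas 2.3.3 and numpy 2.4.6 in Python 3.11.15 and plots with matplotlib 3.10.9. Arrays give no read depth, and their number limits the precision. The 10 members and 16 lists of other genes (114 of 123 genes measured) were chosen with earlier results of these data known. Named are the members, the receptors Amhr2, Gfra1, Ret and Fgfr2, Sry, up to 4 called genes per list, and the genes most like a member. Other list genes were named after their values were seen. Alternatives were an intensity trend, array weights, median centring, quantile normalization, a filter on dim probe sets and a floor at the 25th percentile. Further ones were only the arrays compared, a replicate block, a 1.5-fold limit, other probe sets of the members and each duplicate array left out.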

Additional observations from a re-analysis of the deposited data

How the results depend on the processing

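With 2 arrays or 1 per day, calls depend on the setting, and the causes were not tested beyond what each setting does. Member genes called on day 10 (3) became 5 with array weights, 5 with only the arrays compared and 1 with only probe sets above the median, which leaves out dim members. On day 20 (4) they became 1 with that filter, 2 with low values raised to the 25th percentile and 2 with only the arrays compared. On day 4 (1) they became 2 with an intensity trend, 3 with array weights and 0 with the filter or the floor, and on days 7 and 15 (2 each) 0 with the filter or the floor. All probe sets called numbered 1892 on day 10 (3114 with weights, 451 with the floor), 3433 on day 20 (944 with the floor, 1491 with only the arrays compared), 419 on day 4 (977 with weights, 116 with the floor), 753 on day 7 (1475 and 196) and 1261 on day 15 (2342 and 283), and 1 between days 20 and 10 (0 with the filter, with only the arrays compared or with the block, 2 with the floor).

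With each duplicate array left out in turn, member genes called ranged over 0 to 5 on day 10, 1 to 4 on day 20, 0 to 1 between days 20 and 10, and 0 to 2 on days 4, 7 and 15 each. Probe sets called ranged over 84 to 2737 on day 10, 911 to 6319 on day 20, 0 to 1315 between days 20 and 10, 0 to 801 on day 4, 0 to 1372 on day 7 and 95 to 2379 on day 15. Log2 fold changes that crossed 0 ranged from -0.10 to 0.60 on day 10 and from -0.20 to 0.51 on day 20 for Sox9, from -0.12 to 0.10 on day 20 for Fgf9, and from -0.11 to 0.64 on day 20 for Aard. Between days 20 and 10 they did so for Sox9 (-0.31 to 0.11), Sox8 (-0.29 to 0.05), Amh (-0.15 to 0.05), Dmrt1 (-0.16 to 0.26), Gdnf (-0.47 to 0.54) and Clu (-0.49 to 0.02).

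Other probe sets turned the sign for Sox9 (-0.29 on day 10, -0.12 on day 20, -0.25 on day 7, 0.17 and 0.14 between days 20 and 10) and Fgf9 (0.25 on day 20), none of them called. For Dmrt1 between days 20 and 10 the floor gives no value, since both days lie at it. The replicate numbers do not pair the arrays (correlation of deviations -0.158, 0.154 and -0.128), and the replicate block gave 2 member genes on day 10, 3 on day 20 and 0 between them, with 1405, 2994 and 0 probe sets. It ended the Gdnf calls of both days (adjusted p = 0.0886 and 0.0584) and no other member's.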
